A study of Homo sapiens with 24 samples.

Results

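The nuclear genes for subunits of the mitochondrial respiratory chain and of ATP synthase were described in 2 human cancer cell lines, their neratinib-resistant (NR) derivatives, and each of these with and without neratinib. Members were all table entries on chromosomes 1 to 22 and X whose symbols carried the family prefixes NDUFA, NDUFB, NDUFC, NDUFS or NDUFV with a number, UQCR, SDHA to SDHD, COX4 to COX8 with a letter, or ATP5 with a letter, leaving out symbols that end as pseudogenes do. Of 39786 entries, 162 matched these prefixes, 73 of them were left out by their endings, and 89 were members. The 89 entries held 85 symbols, since NDUFA7, NDUFB8, SDHD and UQCR11 had a second entry each, and the entry with the higher mean was used. Subunits of the complexes made up 77 of the 85 symbols, with 36 in complex I, 4 in complex II, 8 in complex III, 14 in complex IV and 15 in ATP synthase, which is also called complex V. The other 8 symbols were antisense or readthrough transcripts, a copy of ATP5L, ATP5S, ATP5SL and COX7A2L, and they are given apart. The prefixes missed CYC1, COX4I1, COX4I2, NDUFAB1 and a few small ATP synthase subunits, which are given in a list of their own.

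Complexes I and II pass electrons from NADH and succinate to ubiquinone, complex III passes them on to cytochrome c, and complex IV passes them to oxygen. Complexes I, III and IV pump protons across the inner mitochondrial membrane, and the return of protons through ATP synthase drives the making of ATP. Most subunits are encoded in the nucleus and imported, while a few core subunits are encoded by mitochondrial DNA, and complex II is wholly nuclear. Several subunits exist as paralogues that replace each other in the same position of a complex.

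Neratinib is an irreversible inhibitor of the kinases EGFR, HER2 and HER4. The 8 groups of 3 libraries were OVCAR8 NR cells with neratinib, OVCAR8 NR cells without it, parental OVCAR8 with neratinib, parental OVCAR8 without it, and the same 4 groups of 5637. OVCAR8 is an ovarian cancer line and 5637 a bladder cancer line. Neratinib was given for 24 h at 1 µM to OVCAR8 and its NR cells and at 600 nM to 5637 and its NR cells, so dose and line cannot be told apart. NR cells were kept without the drug for 1 week before seeding. Groups without the drug are called controls here, and what they received in its place is not given in the sources used here, nor whether an NR line is 1 clone or a pool. The 3 replicates are dishes seeded in parallel, so p-values measure only the spread between these dishes, which may be technical. In bulk samples, fewer cells of a kind and less RNA per cell cannot be told apart.

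Library totals ran between 23849832 and 48486296 counts. In 5637 libraries the urothelial markers KRT5 and TP63 ran between 536 and 4384 CPM (counts scaled to the library total) and between 59.3 and 237 CPM, while in OVCAR8 libraries neither passed 0.779 CPM. The other urothelial markers were less distinct: KRT7 was at 421 to 2078 CPM in OVCAR8 and 1455 to 3542 CPM in 5637, GATA3 at 10.3 to 19.0 CPM in OVCAR8 and 32.6 to 72.8 CPM in 5637, and PPARG at 5.61 to 10.6 CPM in OVCAR8 and 85 to 141 CPM in 5637, while UPK1B and UPK2 reached at most 0.0960 and 0.151 CPM in OVCAR8. OVCAR8 libraries held PAX8, an ovarian and Müllerian marker, at 69.2 to 157 CPM, against 12 to 47.8 CPM in 5637. WT1, of the same list, went against the OVCAR8 label. It was at 0.882 to 4.32 CPM in OVCAR8 (median 2.24) and 1.67 to 32.6 CPM in 5637 (median 10.6). The other markers of that list went against the OVCAR8 label or were absent: MUC16 reached at most 0.220 CPM in OVCAR8, against 78.1 to 391 CPM in 5637, and EMX2 and SOX17 were at or near 0 in both lines. The 7 markers found for leukocytes, endothelium and fibroblasts summed to at most 1.91 CPM in OVCAR8 and 1.25 CPM in 5637, and PTPRC, of leukocytes, reached at most 0.125 CPM in any library.

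OVCAR8 parental control replicate 2 stood apart, and it touches the short subunit genes more than others. Its share of non-mitochondrial counts in genes over 8 kb was 15.4%, and its share in genes under 1 kb was 2.26%. The other control replicates of that group had 1.34% and 1.37% in genes under 1 kb. Relative to the mean of these other replicates, 64 of 66 subunits with at least 5 CPM were higher in replicate 2, with a median log2 ratio of 0.77, while the median over 10667 nuclear genes was -0.15. Subunits were also higher than other genes of like length there: under 2 kb the median was 0.83 for 25 subunits and 0.60 for 851 genes, and from 4 to 8 kb it was 0.69 for 12 subunits and -0.27 for 4707 genes. The median log2 ratio of replicate 1 to replicate 3 was -0.03 for the subunits. Comparisons that use this group are therefore given with and without replicate 2.

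**Figure D1:**
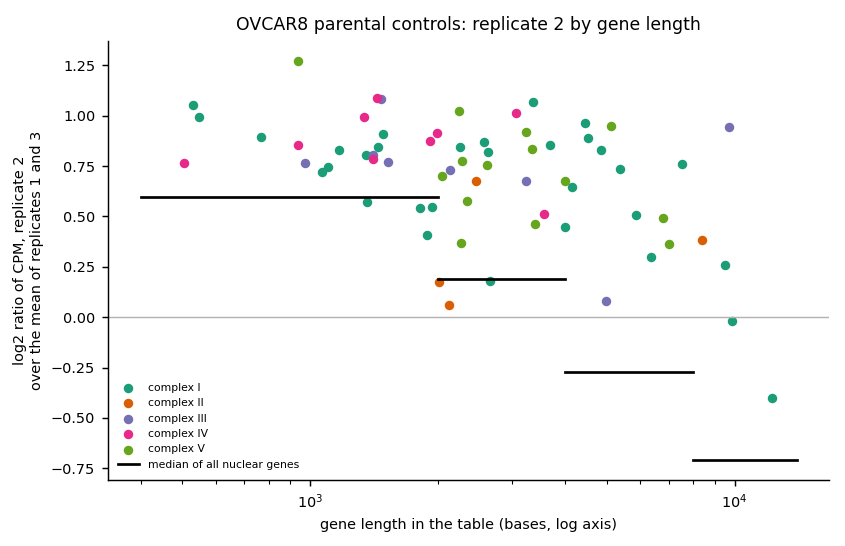
Log2 ratio of CPM in OVCAR8 parental control replicate 2 to the mean of replicates 1 and 3 (y axis) against gene length (bases, log x axis). Points are subunits, coloured by complex, and black lines are medians of all nuclear genes in each length class. The subunits lie above 0 in 64 of 66 cases, at a median of 0.77.

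Of the 77 subunits, 70 were tested in 5637 and 72 in OVCAR8, and 8 had a mean below 1 CPM over all 24 libraries. NDUFA3, NDUFA6, NDUFB11, ATP5L and COX8C had almost no counts. NDUFA3 averaged 0.0023 CPM, and the table listed 2 further copies of it on patch sequences. NDUFA6 and ATP5L had no such copies and averaged 0.0031 and 0.0042 CPM. Why these entries were low was not tested, and their values were not read as levels of the genes. NDUFV2, a core subunit of the complex I entry module, averaged 1.40 CPM and is also uncertain. COX6A2 and COX7A1, the muscle-type paralogues of COX6A1 and COX7A2, averaged 0.367 and 0.996 CPM. In TPM, a level scaled to gene length and library size, COX8A, a small complex IV subunit, led in 5637 and ATP5B, the catalytic beta subunit of ATP synthase, led in OVCAR8. COX8A averaged 1000.2 ± 41.7 TPM and ATP5B 806 ± 33.2 TPM in 5637 parental controls (SD, n = 3). ATP5B averaged 1105 ± 20.03 TPM in OVCAR8 parental cells with neratinib (SD, n = 3), and had 1293, 1460 and 1261 TPM in control replicates 1, 2 and 3.

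Neratinib lowered most subunits of parental 5637, in all complexes. Summed over the subunits, parental 5637 with neratinib held 5666 ± 76.9 CPM and its control 6726 ± 70.3 CPM, and the groups did not overlap (SD, n = 3 each). By edgeR's quasi-likelihood test with Benjamini-Hochberg adjustment over all genes, 52 of 70 tested subunits were lower and 3 were higher at an adjusted p under 0.05. Among all 18307 genes tested, 23.5% were lower and 23.9% were higher, and the median log2 fold change was -0.30 for the subunits and 0.02 for all genes. The 2 groups did not overlap in CPM for 47 of the 52, and the like share among all called genes was not counted. The falls were small: 1 of the 52 exceeded 2-fold, and it was NDUFV2, at -1.45 ± 0.27 log2 (SE) from 0.486, 0.474 and 0.490 CPM with neratinib and 1.49, 0.912 and 1.29 CPM in controls, named after its values were seen. With scaling by library size alone, the median of all genes shifted to 0.13 and the split of all calls moved from 50.4% to 64.2% higher, and 37 subunits were then lower and 3 higher. Of all 18307 genes, 3212 were lower and 5762 higher with that scaling.

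**Figure D2:**
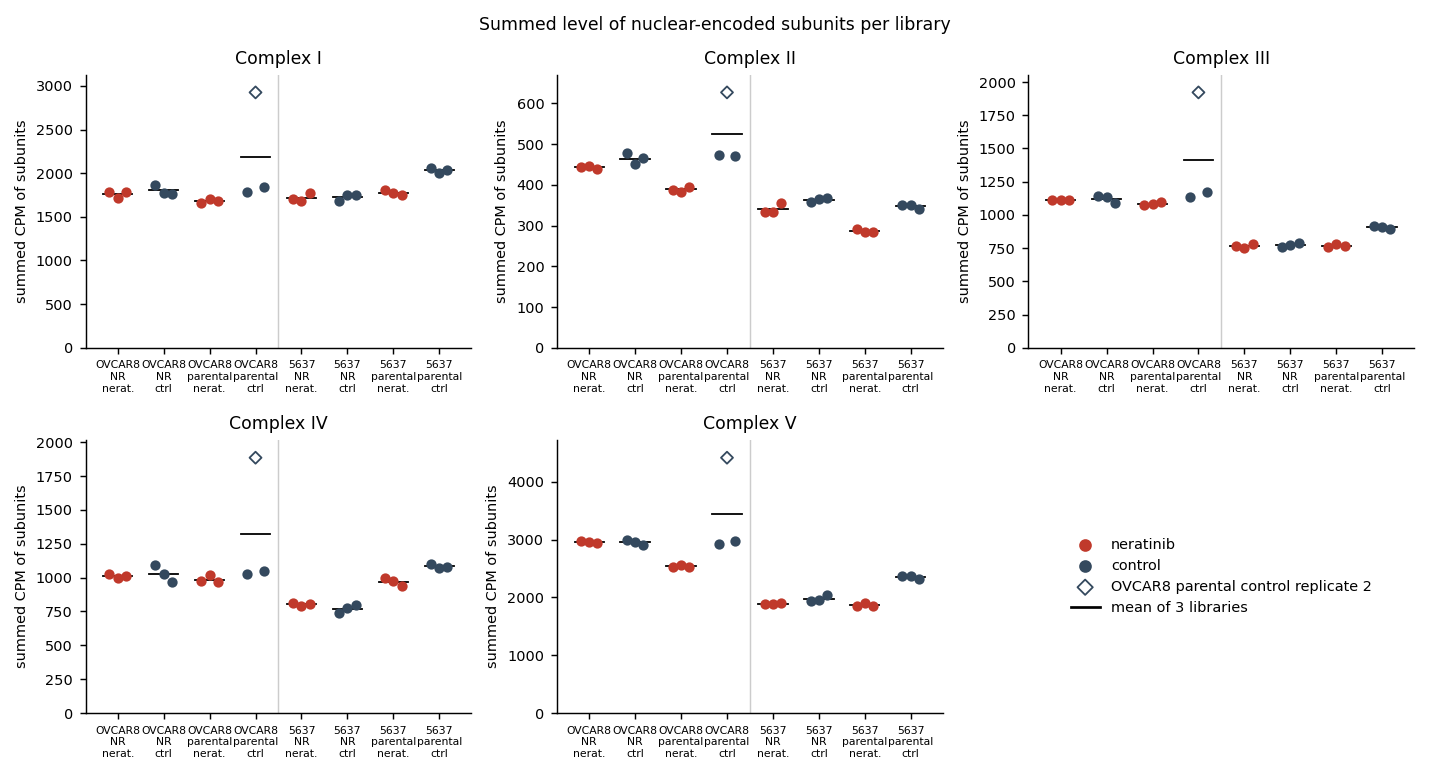
Summed CPM of the nuclear-encoded subunits of each complex (y axes) in every library, with groups on the x axis ordered as OVCAR8 NR neratinib, OVCAR8 NR control, OVCAR8 parental neratinib, OVCAR8 parental control, then the same groups of 5637. Parental 5637 with neratinib lies below its control in every complex, and OVCAR8 parental control replicate 2 lies above the other libraries of its group.

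In complex I, 22 of 33 tested subunits were lower in parental 5637 with neratinib and none was higher by edgeR, with 0 higher at an unadjusted p under 0.05 and 0 by DESeq2. The largest falls among subunits above 5 CPM were in NDUFB3 and NDUFB6, of the membrane arm, and NDUFS6, of the matrix arm. NDUFB3 had 27.9, 24.8 and 29.0 CPM with neratinib and 38.4, 39.4 and 41.2 CPM in controls. All 3 treated dishes lay below all controls, and the log2 fold change was -0.65 ± 0.07 (SE, edgeR adjusted p = 2.16e-06). NDUFS6 fell by 0.64 ± 0.06 and NDUFB6 by 0.63 ± 0.10 on the log2 scale. NDUFS3, a core subunit that helps to form the ubiquinone-binding arm, fell by 0.41 ± 0.06, and NDUFS1, which carries iron-sulfur clusters, fell by 0.26 ± 0.06. NDUFV1, which binds NADH, had a log2 fold change of -0.11 that did not pass the test (edgeR adjusted p = 0.164).

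The other complexes held fewer counts as well. In complex II, SDHB, the iron-sulfur subunit, had 69.7, 71.7 and 68.2 CPM with neratinib and 98.2, 96.0 and 96.2 CPM in parental 5637 controls, so the groups did not overlap. Its log2 fold change was -0.58 ± 0.05 (SE, edgeR adjusted p = 3.55e-07). SDHA, the flavoprotein, fell by 0.38 ± 0.05 and the membrane anchor SDHC by 0.21 ± 0.06, while the other anchor, SDHD, was at -0.08 and did not pass (edgeR adjusted p = 0.669). In complex III, all 8 tested subunits were lower. UQCRFS1, the Rieske iron-sulfur protein, fell by 0.58 ± 0.07, UQCR10 by 0.46 ± 0.08 and the core protein UQCRC1 by 0.41 ± 0.07. In complex IV, 6 of 11 were lower, led by COX7A2 at -0.38 ± 0.05, NDUFA4 at -0.36 ± 0.06 and COX7C at -0.35 ± 0.05, and 2 were higher.

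ATP synthase had the most negative median of the 5 complexes in parental 5637, at -0.48, with 13 of 14 tested subunits lower and 1 higher. The other medians were -0.26 in complex I, -0.29 in complex II, -0.32 in complex III and -0.29 in complex IV. Its catalytic core fell: ATP5A1, the alpha subunit, had 212, 219 and 218 CPM with neratinib and 289, 287 and 271 CPM in controls, and ATP5B had 473, 487 and 467 CPM with neratinib and 613, 626 and 598 CPM in controls. Neither gene's groups overlapped. The log2 fold changes were -0.49 ± 0.05 for ATP5A1 and -0.47 ± 0.05 for ATP5B (SE, edgeR adjusted p = 8.3e-07 and 2.99e-06). ATP5J2, a subunit of the membrane part, fell by 0.64 ± 0.11.

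**Figure D3:**
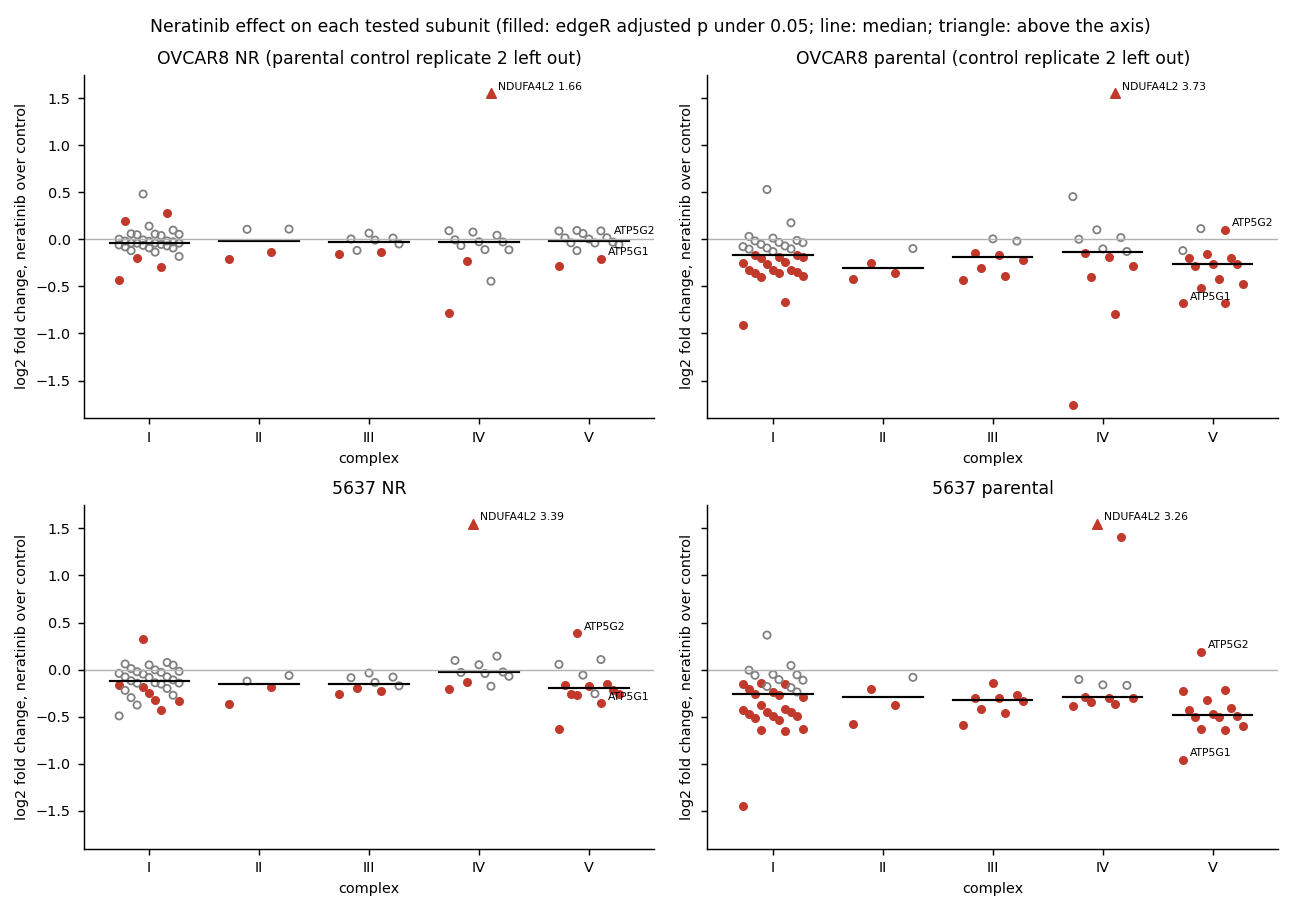
Log2 fold change of neratinib over control for every tested subunit (y axis) by complex (x axis), in one panel per cell population, with points past an edgeR adjusted p of 0.05 filled, medians as lines, NDUFA4L2 as a triangle above the axis, and OVCAR8 parental control replicate 2 left out of both OVCAR8 panels. In parental 5637 the medians run between -0.48 in ATP synthase and -0.26 in complex I.

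The c ring of ATP synthase, the rotor through which protons pass, is built from identical copies of 1 small protein that is encoded by 3 genes, ATP5G1, ATP5G2 and ATP5G3. These genes differ in the presequence that is removed on import and give the same mature subunit, and they have processed pseudogenes, so their counts can be split with near-identical sequences and are uncertain in that respect. In hg19, ATP5G1 (ENSG00000159199.9) lies at chr17:46970127-46973233, ATP5G2 (ENSG00000135390.13) at chr12:54026510-54071192 and ATP5G3 (ENSG00000154518.5) at chr2:176040986-176049335. The promoters of 2 of these genes and of NDUFA4L2, which is described after them, are shown because ATP5G1 and ATP5G2 moved in opposite directions and NDUFA4L2 rose most. The sequences are from RefSeq on GRCh38.p14, run 5′ to 3′ on the gene's strand and cover 250 bases before and 50 bases after the start. They lie at chr17:48892537-48892836 on the plus strand for ATP5G1, at chr12:53676034-53676333 on the minus strand for ATP5G2 and at chr12:57240713-57241012 on the minus strand for NDUFA4L2. Capitals mark matches on either strand to the letters GCGCATGCG, a core of sites of the nuclear respiratory factor NRF1, or ACGTG or GCGTG, the forms of the core of hypoxia response elements, and the ACGTG matches of ATP5G1 on the 2 strands overlap.
ATP5G1: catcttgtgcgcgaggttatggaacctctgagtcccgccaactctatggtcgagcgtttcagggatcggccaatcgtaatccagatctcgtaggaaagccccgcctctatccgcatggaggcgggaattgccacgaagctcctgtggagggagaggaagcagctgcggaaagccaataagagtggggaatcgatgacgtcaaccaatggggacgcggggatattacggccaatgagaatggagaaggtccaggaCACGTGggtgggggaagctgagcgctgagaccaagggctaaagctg
ATP5G2: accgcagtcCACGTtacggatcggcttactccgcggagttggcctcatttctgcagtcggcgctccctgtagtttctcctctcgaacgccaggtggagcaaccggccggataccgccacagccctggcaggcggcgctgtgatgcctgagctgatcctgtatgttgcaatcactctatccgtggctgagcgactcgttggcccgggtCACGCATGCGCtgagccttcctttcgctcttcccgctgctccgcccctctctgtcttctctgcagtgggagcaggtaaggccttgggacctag
NDUFA4L2: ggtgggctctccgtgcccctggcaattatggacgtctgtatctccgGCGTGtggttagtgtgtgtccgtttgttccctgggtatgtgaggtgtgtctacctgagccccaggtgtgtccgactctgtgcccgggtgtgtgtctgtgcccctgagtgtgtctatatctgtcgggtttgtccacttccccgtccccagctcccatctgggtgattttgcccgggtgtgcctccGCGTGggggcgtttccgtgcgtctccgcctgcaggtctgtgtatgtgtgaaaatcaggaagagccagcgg
The letters GCGCATGCG occur once in the ATP5G2 promoter and overlap a GCGTG match there. ACGTG occurs in the promoters of ATP5G1 and ATP5G2, and GCGTG occurs at 2 places in that of NDUFA4L2.

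Promoters of 300 bases were found for 63 of the 77 subunits, and the same letters were counted in all 27305 promoters of that table, on both strands. GCGCATGCG was in 10 of the 63 (15.9%) and in 2.10% of all promoters. The 10 genes were ATP5C1, ATP5G2, ATP5I, ATP5J, COX6A1, NDUFA8, NDUFB4, NDUFS6, NDUFS7 and SDHD. CCGGAAG, a core of ETS family sites such as those of GABP, was in 28.6% of the 63 and 10.7% of all promoters. AAGATGGCG, a core of YY1 sites, was in 12.7% of the 63 and 1.85% of all. ACGTG was in 27.0% of the 63 and 21.6% of all, GCGTG in 49.2% of the 63 and 36.3% of all, and TGATGNAA, a core of the composite elements bound by ATF4, was in 1.59% of the 63 and 3.67% of all. These are counts of letters in a window and say nothing of binding.

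The c-ring genes changed in opposite directions in parental 5637. ATP5G1 had 74.7, 76.3 and 74.7 CPM with neratinib and 138, 135 and 135 CPM in controls, and the groups did not overlap. Its log2 fold change was -0.96 ± 0.06 (SE, edgeR adjusted p = 3.41e-09), the largest fall among members above 5 CPM. ATP5G3 had 108, 113 and 109 CPM with neratinib and 161, 156 and 158 CPM in controls, a log2 fold change of -0.63 ± 0.06. ATP5G2 had 193, 204 and 189 CPM with neratinib and 160, 159 and 159 CPM in controls. All 3 treated dishes exceeded all controls, and the log2 fold change was 0.19 ± 0.06 (SE, edgeR adjusted p = 0.0232). This rise in ATP5G2 missed the threshold when any of the 3 parental control dishes, or the second treated dish, was left out (edgeR adjusted p between 0.0558 and 0.125). Per unit of gene length, ATP5G1 made up 30.6 ± 0.49% of the c-ring total with neratinib and 45.1 ± 0.13% in controls, and ATP5G2 made up 52.1 ± 0.65% with neratinib and 34.7 ± 0.24% in controls (SD, n = 3 each). By counts alone, ATP5G1 made up 19.8 ± 0.33% with neratinib and 29.9 ± 0.11% in controls. ATP5G2 made up 51.3 ± 0.63% and 35.1 ± 0.28% by counts. The order of these 2 genes in controls thus depends on the length divisor, while the directions of change do not. The transcripts RP11-463M16.4 and RP11-972K6.1 overlap the ATP5G1 and ATP5G2 entries, but they were low: RP11-972K6.1 was at 0 in all groups of 5637, and RP11-463M16.4 averaged 1.08 CPM with neratinib and 0.900 CPM in controls of parental 5637 (log2 fold change 0.15, edgeR adjusted p = 0.55).

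**Figure D4:**
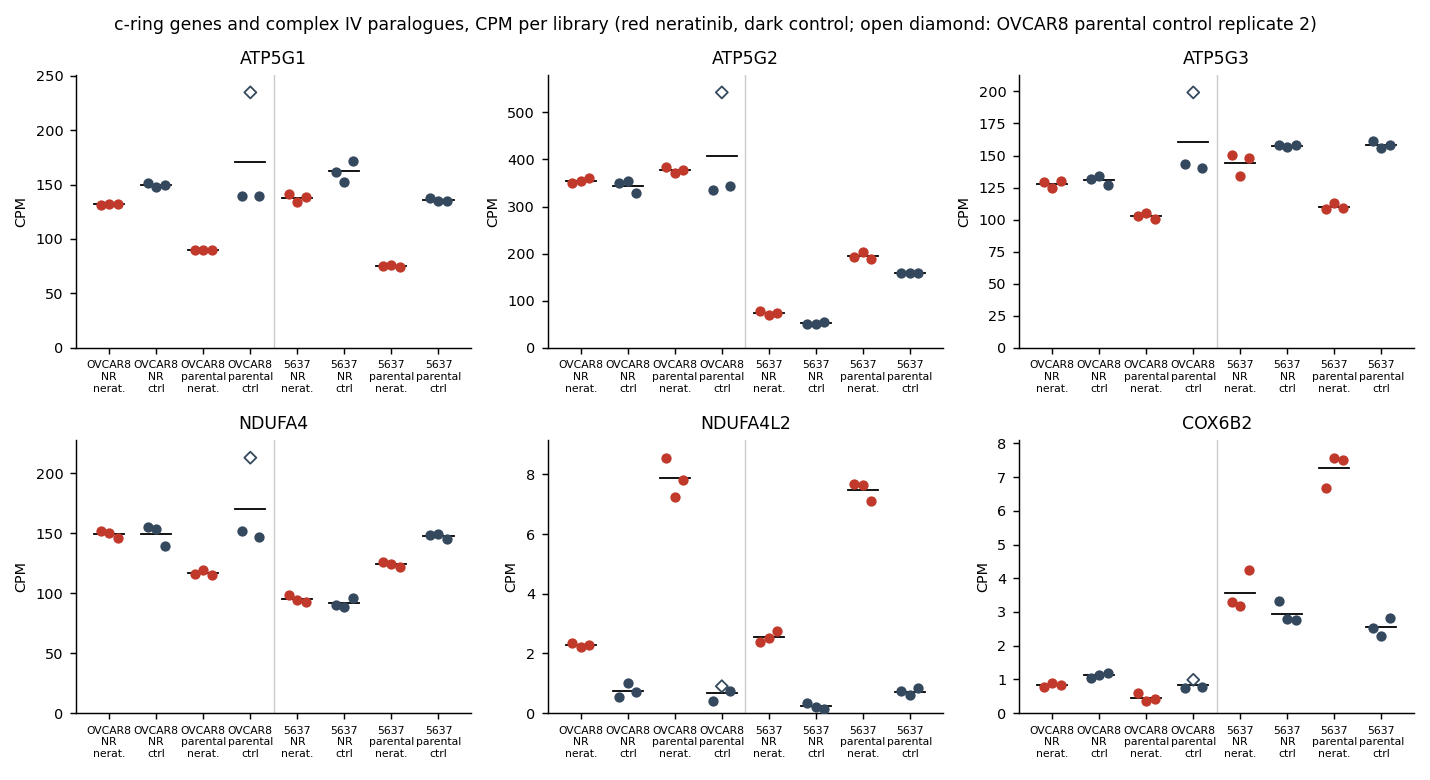
CPM of the c-ring genes and of complex IV paralogues (y axes) in each library, with neratinib in red, controls dark and OVCAR8 parental control replicate 2 as an open diamond, and groups on the x axis ordered as in the plot of summed levels. ATP5G1 is at 74.7 to 76.3 CPM in parental 5637 with neratinib and 135 to 138 CPM in its control, while NDUFA4L2 is higher with neratinib in all 4 cell populations.

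In complex IV, the 2 risers in parental 5637 were paralogues of widely expressed subunits. NDUFA4L2 (ENSG00000185633.6, chr12:57628686-57634498 in hg19), a hypoxia-inducible paralogue of the complex IV subunit NDUFA4, had 7.67, 7.65 and 7.10 CPM with neratinib and 0.722, 0.616 and 0.824 CPM in controls. The groups were far apart, with a log2 fold change of 3.26 ± 0.17 (SE, edgeR adjusted p = 6.7e-10), at a low level throughout. NDUFA4 itself had 126, 124 and 122 CPM with neratinib and 149, 149 and 145 CPM in controls. The NDUFA4L2 entry overlaps that of SHMT2, a mitochondrial serine hydroxymethyltransferase that moved the same way, averaging 423 CPM with neratinib and 167 CPM in controls. The strand setting of the counting is not given in the sources used here, so reads of NDUFA4L2 and of SHMT2 cannot be told apart by these counts alone. COX6B2 (ENSG00000160471.8), the testis-type paralogue of COX6B1, had 6.67, 7.58 and 7.52 CPM with neratinib and 2.51, 2.29 and 2.82 CPM in controls, without overlap, and rose by 1.40 ± 0.13 on the log2 scale (SE, edgeR adjusted p = 4.32e-07). Its widely expressed partner COX6B1 fell by 0.30 ± 0.09.

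In NR 5637, whose subunit total was lower without the drug, fewer subunits changed under neratinib. The summed subunits were 5522 ± 87.1 CPM in NR 5637 with neratinib and 5612 ± 138 CPM in its control, with overlapping groups (SD, n = 3 each). By edgeR, 22 of 70 subunits were lower and 3 were higher, where 21.1% of all genes were lower and 18.4% were higher. The groups did not overlap in CPM for 11 of the 22, and the like share among all called genes was not counted. Of the 22 calls, 11 were lost when one library or another was left out. The median was -0.14 for the subunits and 0.00 for all genes. With library size scaling the median of all genes shifted to 0.12, the split of all calls moved from 46.6% to 67.4% higher, and 7 subunits were lower and 7 higher. Of all 18307 genes, 2430 were lower and 5015 higher with that scaling. Lower calls were then no more frequent among the subunits than among all genes. Without NR neratinib replicate 3, 14 subunits were lower, where 3101 of 18858 genes were lower.

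The lower calls in NR 5637 included 9 of 14 ATP synthase subunits, against 6 of 33 in complex I, 2 of 4 in complex II, 3 of 8 in complex III and 2 of 11 in complex IV. ATP5D, the delta subunit of the central stalk, fell by 0.63 ± 0.13, ATP5B by 0.27 ± 0.05 and SDHB by 0.37 ± 0.05 on the log2 scale. ATP5G1 had 141, 134 and 139 CPM in NR cells with neratinib and 162, 152 and 172 CPM in NR controls, without overlap, and fell by 0.36 ± 0.06 (SE, edgeR adjusted p = 0.000146). ATP5G2 had 77.8, 69.0 and 73.9 CPM with neratinib and 49.9, 50.1 and 54.7 CPM in NR controls. It rose by 0.39 ± 0.07 (SE, edgeR adjusted p = 0.000232), again without overlap of the groups. ATP5G3 fell by 0.26 ± 0.06, a call that was lost with library size scaling, at -0.13 (adjusted p = 0.0519). NDUFA4L2 rose by 3.39 ± 0.23, with 2.38, 2.51 and 2.76 CPM with neratinib and 0.345, 0.201 and 0.122 CPM in NR controls, and SHMT2 averaged 287 CPM with neratinib and 141 CPM without. NDUFA13, a complex I subunit also known as GRIM-19, rose by 0.32 ± 0.11, a call lost without NR control replicate 2 or 3 or treated NR replicate 1 (edgeR adjusted p up to 0.122), and YJEFN3, whose entry overlaps it, rose by 1.03 in the same comparison.

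The drug effect itself differed between NR and parental 5637 for 18 subunits. The difference of log2 effects, NR minus parental, was positive past the threshold in 17 of 70 subunits and negative in 1, where 7.39% of all genes were positive and 6.48% were negative, with a median of 0.21 for subunits and -0.01 for all genes. A positive difference here means a smaller fall, or none, in NR cells. The 17 were 7 of complex I, 1 of complex III, 2 of complex IV and 7 of ATP synthase. By DESeq2, 24 were positive, and 36 were at an unadjusted p under 0.05 in edgeR. Leaving out single libraries gave between 7 and 22 positive subunits, where between 977 and 1688 of all genes were positive. The lowest were 7 without NR control replicate 1, 8 without parental control replicate 1 and 9 without replicate 2 of the parental controls. Omitting treated parental replicate 2 gave 9, and omitting treated parental replicate 3 gave 10.

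NDUFS5, a complex I subunit facing the intermembrane space, had the smallest adjusted p of these. It had 102, 106 and 106 CPM in NR 5637 with neratinib and 92.2, 94.5 and 97.9 CPM in NR controls. It had 94.7, 99.4 and 101 CPM in parental cells with neratinib and 132, 134 and 132 CPM in parental controls. The fitted effect was 0.01 in NR cells and -0.54 in parental cells, and the difference was 0.55 ± 0.07 (SE, edgeR adjusted p = 9.75e-05). In NR cells the CPM were higher with neratinib, without overlap, but the fitted effect there did not pass (edgeR adjusted p = 0.888). CPM are scaled to the library total alone, while the fit applies a further scaling. ATP5G1 had a difference of 0.60 ± 0.08 (SE, edgeR adjusted p = 0.000124), and ATP5G3 one of 0.38 ± 0.08. NDUFB6 at 0.49, NDUFB3 at 0.40, COX7A2 at 0.35, ATP5A1 at 0.33, UQCRFS1 at 0.32 and NDUFA4 at 0.29 followed. The negative one was COX6B2, at -1.26 ± 0.19 (SE, edgeR adjusted p = 0.000329): it had 3.28, 3.17 and 4.24 CPM in NR cells with neratinib and 3.31, 2.78 and 2.76 CPM in NR controls, so the groups overlapped. For NDUFA4L2 the difference was 0.13 ± 0.30 and for ATP5G2 0.20 ± 0.09, and neither passed (edgeR adjusted p = 0.848 and 0.176).

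Without drug, NR 5637 differed from parental 5637 in most subunits. The summed subunits were 5612 ± 138 CPM in NR controls and 6726 ± 70.3 CPM in parental controls, without overlap (SD, n = 3 each). By edgeR, 38 of 70 subunits were lower in NR and 12 were higher, where 28.0% of all genes were lower and 28.4% were higher. The groups did not overlap for any of these 50, and how often this held among all called genes was not counted. The median was -0.25 for subunits and 0.00 for all genes. The complexes differed: 18 of 33 were lower and 5 higher in complex I, 6 of 8 lower and 2 higher in complex III, 9 of 11 lower and 1 higher in complex IV, and 5 of 14 lower and 3 higher in ATP synthase. Complex II had 1 of 4 higher and none lower by edgeR, with 0 lower at an unadjusted p under 0.05 and 0 by DESeq2. The 7 urothelial markers summed to 2244 to 2414 CPM in NR controls and 6943 to 7275 CPM in parental controls, with 5 lower and 2 higher by edgeR, and any part of that shift in these results was not tested.

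Complex IV had the most negative median in this comparison, at -0.69. COX7A2 had 53.8, 57.1 and 56.5 CPM in NR controls and 94.9, 93.5 and 97.1 CPM in parental controls, a log2 fold change of -0.78 ± 0.05 (SE, edgeR adjusted p = 4.37e-09). COX5A, a nuclear subunit on the matrix side, had 72.7, 76.1 and 79.6 CPM in NR controls and 126, 119 and 118 CPM in parental controls. COX5A fell by 0.69 ± 0.07, COX5B by 0.73 ± 0.10, COX6B1 by 0.70 ± 0.09 and NDUFA4 by 0.70 ± 0.06. All 4 had groups that did not overlap. COX6C was the one complex IV subunit that was higher in NR cells, at 0.28 ± 0.10 (edgeR adjusted p = 0.0223). NDUFA4L2 was lower by 1.71 ± 0.28 on the log2 scale, at 0.345, 0.201 and 0.122 CPM in NR controls and 0.722, 0.616 and 0.824 CPM in parental controls. SHMT2, whose entry overlaps it, was at -0.26 in this comparison (edgeR adjusted p = 0.000811).

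Among members above 5 CPM, the largest difference between untreated NR and parental 5637 was in the c ring. ATP5G2 had 49.9, 50.1 and 54.7 CPM in NR controls and 160, 159 and 159 CPM in parental controls, a log2 fold change of -1.64 ± 0.07 (SE, edgeR adjusted p = 8.91e-12). ATP5G1 was higher, with 162, 152 and 172 CPM in NR controls and 138, 135 and 135 CPM in parental controls, a log2 fold change of 0.24 ± 0.06 (SE, edgeR adjusted p = 0.00191). ATP5G3 was at -0.02 ± 0.06 and did not pass (edgeR adjusted p = 0.75). Per unit of gene length, ATP5G1 made up 63.1 ± 0.96% of the c-ring total in NR controls and 45.1 ± 0.13% in parental controls, ATP5G2 13.2 ± 0.32% in NR and 34.7 ± 0.24% in parental controls, and ATP5G3 23.7 ± 0.95% in NR and 20.3 ± 0.20% in parental controls (SD, n = 3 each). By counts alone, ATP5G1 made up 43.6 ± 1.1% in NR and 29.9 ± 0.11% in parental controls. ATP5G2 made up 13.9 ± 0.36% and 35.1 ± 0.28% by counts, and ATP5G3 42.5 ± 1.3% and 35.0 ± 0.29%. The lead of ATP5G1 thus depends on the length divisor, while the directions of change do not. ATP5D fell by 0.86 ± 0.13 and ATP5B by 0.63 ± 0.05, while ATP5J, a peripheral stalk subunit, was higher by 0.55 ± 0.06 and ATP5O, the peripheral stalk subunit OSCP, by 0.18 ± 0.06.

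Complexes I to III were mixed between untreated NR and parental 5637. NDUFA13 had 6.34, 5.42 and 5.92 CPM in NR controls and 13.1, 11.4 and 13.2 CPM in parental controls, and its log2 fold change was -1.11 ± 0.11 (SE, edgeR adjusted p = 2.78e-07). Of the entries that overlap NDUFA13, TSSK6 was at -1.198 on the log2 scale and YJEFN3 was at 0.08 (edgeR adjusted p = 0.606). NDUFS7, a core subunit near the ubiquinone site, fell by 0.95 ± 0.16 and NDUFA12 by 0.89 ± 0.07. NDUFV3 was higher by 0.52 ± 0.07, NDUFC1 by 0.41 ± 0.10 and NDUFS3 by 0.30 ± 0.06. In complex III, UQCR11 fell by 0.79 ± 0.10 and UQCR10 by 0.78 ± 0.08, while UQCRFS1 was higher by 0.21 ± 0.06 and UQCRB by 0.20 ± 0.06. SDHB was higher by 0.17 ± 0.05 (edgeR adjusted p = 0.0124). Some of the smaller rises rested on single libraries: the calls of SDHB and UQCRFS1 were lost without NR control replicate 3, and those of COX6C and ATP5O without NR control replicate 2 (edgeR adjusted p of 0.0634, 0.0727, 0.151 and 0.0968), and each was also lost without 1 or more of the parental controls.

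**Figure D5:**
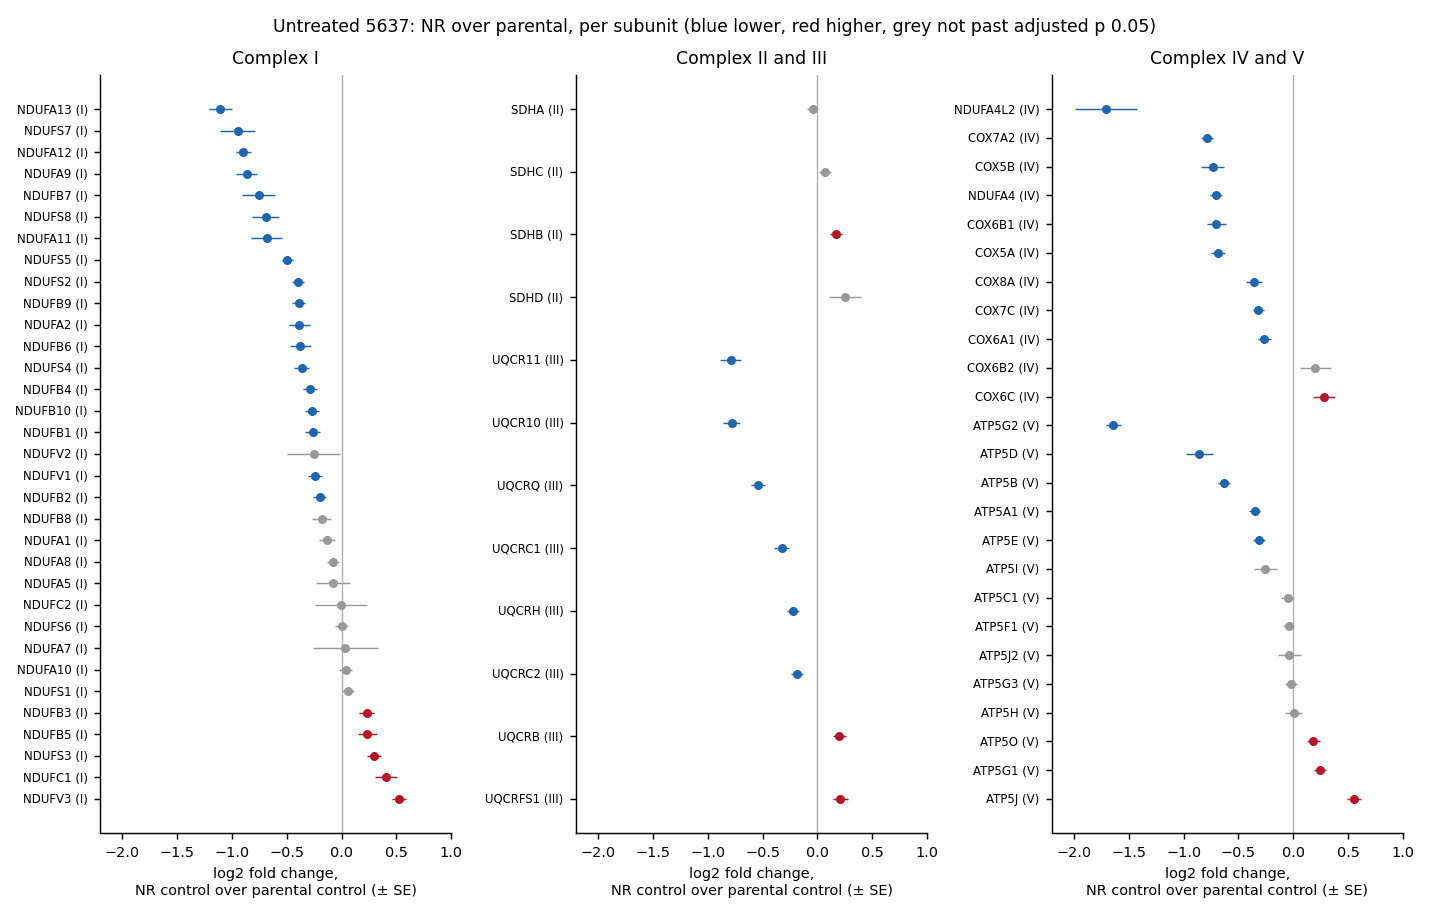
Log2 fold change of NR control over parental control in 5637 (x axis) for each tested subunit (rows, complex in brackets), with SE bars, lower calls in blue, higher calls in red and subunits that did not pass an edgeR adjusted p of 0.05 in grey. ATP5G2 at -1.64 and NDUFA4L2 at -1.71 lie farthest from 0, and ATP5J at 0.55 is the highest.

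Neratinib lowered subunits in parental OVCAR8 as well. The summed subunits were 6633 to 6758 CPM in the 3 libraries with neratinib, and 7346, 11779 and 7504 CPM in control replicates 1, 2 and 3, so the treated libraries lay below all controls with or without replicate 2. By edgeR, 35 of 72 subunits were lower and 1 was higher, where 16.3% of all genes were lower and 16.2% were higher, and the median was -0.54. Without control replicate 2, 44 were lower and 2 were higher, where 24.9% of all genes were lower and 24.3% were higher, and the median was -0.19. All 35 were among the 44. The size of the fall thus depends on that 1 library, and both values are given in what follows. With library size scaling the median of all genes shifted to 0.11 and the split of all calls moved from 49.8% to 62.6% higher.

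Without replicate 2, the lower calls in parental OVCAR8 were 18 of 33 in complex I, 3 of 4 in complex II, 6 of 8 in complex III, 6 of 13 in complex IV and 11 of 14 in ATP synthase. ATP5G1 had 90.2, 89.9 and 90.2 CPM with neratinib and 139, 235 and 139 CPM in controls, without overlap. Its log2 fold change was -1.04 ± 0.19 with all controls and -0.68 ± 0.04 without replicate 2 (SE, edgeR adjusted p = 0.00152 and 2.5e-12). ATP5G3 was at -0.76 with all controls and -0.51 without replicate 2, and ATP5J2 at -1.05 and -0.68. ATP5G2 had 384, 371 and 377 CPM with neratinib and 336, 542 and 344 CPM in controls, so its direction rested on replicate 2: -0.23 with it (edgeR adjusted p = 0.347) and 0.10 without it (edgeR adjusted p = 0.043). Per unit of gene length, ATP5G1 made up 23.9 ± 0.23% of the c-ring total with neratinib and 34.0 ± 1.1% in all 3 controls, and ATP5G2 65.6 ± 0.43% with neratinib and 53.4 ± 0.41% in controls (SD, n = 3 each). Without replicate 2 the control means were 33.4% for ATP5G1 and 53.5% for ATP5G2.

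In the other complexes of parental OVCAR8, NDUFB8, a membrane arm subunit of complex I, had 6.70, 7.98 and 7.33 CPM with neratinib and 10.9, 20.7 and 11.8 CPM in controls, at -1.09 with all controls and -0.67 without replicate 2. SDHB was at -0.75 and -0.42, UQCRFS1 at -0.81 and -0.44, and NDUFA4 at -0.66 and -0.40, and all of these passed in both fits. COX7A1, a muscle-type complex IV subunit, had 0.961, 1.11 and 0.843 CPM with neratinib and 3.29, 4.90 and 3.11 CPM in controls, at -2.05 ± 0.25 with all controls and -1.76 ± 0.20 without replicate 2 (SE, edgeR adjusted p = 9.72e-05 and 1.39e-07). NDUFA4L2 had 8.56, 7.24 and 7.83 CPM with neratinib and 0.408, 0.899 and 0.734 CPM in controls. It rose by 3.44 ± 0.24 with all controls and 3.73 ± 0.20 without replicate 2 (SE), and SHMT2, its overlapping neighbour, averaged 708 CPM with neratinib and 318 CPM in controls. COX6B2 had 0.593, 0.371 and 0.411 CPM with neratinib and 0.744, 0.986 and 0.759 CPM in controls, and fell by 0.97 with all controls and 0.79 without replicate 2.

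NR OVCAR8 cells showed 1 change past the threshold under neratinib. The summed subunits were 7286 ± 69.1 CPM with neratinib and 7372 ± 201 CPM in NR controls, with overlapping groups (SD, n = 3 each). By edgeR, 1 of 72 subunits was higher and 0 were lower, where 0.642% of all genes were higher and 0.747% were lower; 1 was lower at an unadjusted p under 0.05 and 0 by DESeq2. No library of this comparison is replicate 2, but the fit shares its spread with that library, and without it 11 were lower and 3 higher, where 11.9% of all genes were lower and 9.39% were higher. The median was -0.02 with it and -0.03 without it. The riser was NDUFA4L2, with 2.34, 2.21 and 2.27 CPM with neratinib and 0.536, 1.01 and 0.692 CPM in NR controls, at 1.65 ± 0.26 (SE, edgeR adjusted p = 0.00923). It missed the threshold when NR control dish 1 or 3, or treated NR dish 1, was left out (edgeR adjusted p between 0.055 and 0.0758), and SHMT2 was at 0.30 in this comparison (edgeR adjusted p = 0.0695). ATP5G1 had 131, 132 and 132 CPM with neratinib and 152, 148 and 149 CPM in NR controls, which did not overlap. Its log2 fold change was -0.20 with replicate 2 in the fit (edgeR adjusted p = 0.735) and -0.21 without it (edgeR adjusted p = 0.000149).

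Without drug, NR and parental OVCAR8 differed in few subunits. With all controls, edgeR called 2 of 72 lower and 0 higher, where 4.91% of all genes were lower and 4.94% were higher; 0 were higher at an unadjusted p under 0.05 and 0 by DESeq2. The 2 were NDUFC2, of complex I, at -0.41, and COX7A1, at -1.16. The NDUFC2 call was lost without any 1 of the NR controls, and the COX7A1 call without NR control replicate 1 (edgeR adjusted p up to 0.153 and 0.0521). Without replicate 2, 7 were lower and 2 were higher, where 11.4% of all genes were lower and 11.4% were higher, and the median was -0.02, against -0.38 with all controls. COX7A1 had 1.54, 1.80 and 1.92 CPM in NR controls and 3.29, 4.90 and 3.11 CPM in parental controls, without overlap, and was at -0.87 without replicate 2. SDHB was at -0.14 with all controls (edgeR adjusted p = 0.631) and at 0.19 without replicate 2 (edgeR adjusted p = 0.0023). The c-ring shares per unit of length were 35.2 ± 0.92% in NR controls and 34.0 ± 1.1% in parental controls for ATP5G1, and 53.0 ± 0.86% in NR controls and 53.4 ± 0.41% in parental controls for ATP5G2 (SD, n = 3 each).

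The drug effect in NR OVCAR8 minus that in parental OVCAR8 was positive past the threshold in 5 of 72 subunits and negative in 1, where 4.62% of all genes were positive and 4.21% were negative, with a median of 0.54. DESeq2 found 13 positive, and 30 were at an unadjusted p under 0.05 in edgeR. Without replicate 2, 36 were positive and 3 negative, where 17.0% of all genes were positive and 15.7% were negative, with a median of 0.21, and the positive ones were 12 of 33 in complex I, 4 of 4 in complex II, 5 of 8 in complex III, 5 of 13 in complex IV and 10 of 14 in ATP synthase. The 5 with all controls were NDUFA5, NDUFC2, SDHD, ATP5G3 and ATP5F1. ATP5F1, a peripheral stalk subunit, had 334, 327 and 320 CPM in NR cells with neratinib and 330, 330 and 329 CPM in NR controls, and 239, 243 and 238 CPM in parental cells with neratinib and 318, 443 and 325 CPM in parental controls. The difference was 0.67 with all controls and 0.43 ± 0.05 without replicate 2 (SE, edgeR adjusted p = 0.0479 and 5.93e-07). NDUFA4L2 was the negative one, at -1.80 ± 0.37 with all controls and -2.07 ± 0.33 without replicate 2 (SE, edgeR adjusted p = 0.0117 and 3.65e-05). SHMT2, whose entry overlaps it, was at -0.75 in this comparison with all controls (edgeR adjusted p = 0.00191).

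The parental responses of the 2 lines share no library. Of the 70 subunits tested in both lines, 29 were lower in both, which is 85.3% of the 34 lower in OVCAR8 and 55.8% of the 52 lower in 5637. The 52 are 74.3% of the 70 and the 34 are 48.6%, so these shares lie near the rates of lower calls in each line. Without replicate 2, 35 were lower in both, which is 81.4% of the 43 lower in OVCAR8 and 67.3% of the 52 lower in 5637. Among 16246 genes tested in both lines, 4032 were lower in 5637, 2802 in OVCAR8 with all controls, and 1903 in both. The 1903 are 67.9% of those lower in OVCAR8 and 47.2% of those lower in 5637. Both shares lie well above the rates of lower calls over these genes. Without replicate 2, 2534 of 16457 genes were lower in both. These are 57.6% of those lower in OVCAR8 and 62.7% of those lower in 5637. NDUFA4L2 was higher in both, and COX6B2 was called in opposite directions. Fitted directly in all 24 libraries, the difference of the parental effects, OVCAR8 minus 5637, passed for 1 of 72 subunits as lower and 0 as higher, where 4.83% of all genes were lower and 5.46% were higher; 1 was higher at an unadjusted p under 0.05 and 0 by DESeq2. That 1 was COX6B2, at -2.38 ± 0.26 (SE, edgeR adjusted p = 1.13e-06). Without replicate 2, 11 were higher and 1 was lower, where 9.69% of all genes were higher and 8.90% were lower, and the 11 included ATP5G1 at 0.27 ± 0.07 and ATP5B at 0.18 ± 0.06. The median was -0.21 with all controls and 0.14 without replicate 2. The drug doses differed between the lines.

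Untreated parental OVCAR8 and 5637 differed in many subunits, as they did in many genes. With all controls, 26 of 72 subunits were higher in OVCAR8 and 11 lower, where 36.8% of all genes were higher and 35.1% were lower. Without replicate 2, 22 were higher and 33 lower, where 36.5% of all genes were higher and 36.3% were lower. Higher calls were thus no more frequent among subunits than among all genes in either fit. Lower calls were less frequent with all controls and more frequent without replicate 2. The 22 and the 11 were common to both fits. The 4 that were higher in 1 fit alone were ATP5E, ATP5G1, NDUFB5 and UQCRFS1. SDHD had 66.1, 65.3 and 59.2 CPM in OVCAR8 controls and 20.5, 21.7 and 19.1 CPM in 5637 controls, at 1.64 ± 0.13 with all controls and 1.57 ± 0.12 without replicate 2 (SE, edgeR adjusted p = 5.65e-11 and 1.41e-11). ATP5C1, the gamma subunit that turns in the catalytic head, had 259, 395 and 270 CPM in OVCAR8 controls and 111, 106 and 105 CPM in 5637 controls, at 1.53 and 1.25. ATP5G2 was higher by 1.37 with all controls and 1.05 without replicate 2.

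Lower in OVCAR8 were NDUFA5, at -1.36 with all controls and -1.40 without replicate 2, NDUFS1, at -0.71 and -0.63, and COX6B1, at -0.65 and -1.06. NDUFA5 had 20.5, 19.2 and 18.5 CPM in OVCAR8 controls and 51.4, 52.0 and 45.7 CPM in 5637 controls. COX6A2 had 0 counts in all 12 libraries of 5637 and 0.295 to 1.62 CPM in those of OVCAR8, too low for a fold. NDUFB9, UQCRB and COX6C lie on chromosome 8 in hg19, and all were higher in OVCAR8, UQCRB by 1.64 with all controls and 1.19 without replicate 2. Among 730 genes tested on that chromosome the median was 0.49 and 52.3% were higher, against the 36.8% of all genes. Without replicate 2 it was 50.1% of 742 genes, against 36.5%. Chromosome 8 was not alone in this. With all controls, chromosome 16, which holds NDUFB10, UQCRC2 and COX6A2, had a median of 0.66 with 59.2% higher. Chromosome 10 had a median of 0.40 with 51.9% higher. NDUFA5, named above as lower, lies on chromosome 7, which had the most negative median of the chromosomes. It was -0.50 with all controls, with 21.8% higher, and -0.53 without replicate 2, with 20.8% higher.

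The members that are not subunits were few above the filter. COX7A2L, a factor that joins complexes III and IV into supercomplexes, moved against the subunits: it rose by 0.25 in parental 5637 with neratinib (edgeR adjusted p = 0.00214), and in parental OVCAR8 by 0.36 with all controls and 0.57 without replicate 2 (edgeR adjusted p = 0.0458 and 2.78e-10). The call with all controls was lost without any 1 of the other parental OVCAR8 libraries (edgeR adjusted p up to 0.138). It was also higher by 0.40 in untreated NR 5637 than in the parental line (edgeR adjusted p = 2.21e-05). It was at -0.01 in NR 5637 with neratinib and did not pass (edgeR adjusted p = 0.897).

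Other genes of the pathway were read as 4 lists, and the genes named from them were in part chosen after their values were seen. In parental 5637 with neratinib, 23.5% of all genes were lower and 23.9% were higher. Of the subunits and carriers that the prefixes miss, 5 of 7 tested were lower in parental 5637 with neratinib, among them NDUFAB1, an acyl carrier protein of complex I, at -0.81, CYCS, cytochrome c, at -0.77, and CYC1, cytochrome c1, at -0.61, while COX4I1 was at -0.10 and did not pass (edgeR adjusted p = 0.0997). Of 46 tested assembly factors, 21 were lower and 2 higher, with a median of -0.22. Of 13 regulators of mitochondrial gene expression, 9 were lower, with a median of -0.44: TFB2M, a mitochondrial transcription factor, fell by 0.51, POLRMT, the mitochondrial RNA polymerase, by 0.52, PPRC1, a coactivator of the PGC-1 family, by 0.54, TFAM, which packages mitochondrial DNA, by 0.45, and NRF1 by 0.45. Of the 13 genes of mitochondrial DNA, 7 were lower, with a median of -0.26, among them MT-ATP6 at -0.38, while MT-CO1 was at -0.09 and did not pass (edgeR adjusted p = 0.457).

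In NR 5637 with neratinib these lists had fewer lower calls: 3 of 7 for the subunits outside the prefixes, 12 of 46 assembly factors, 7 of 13 regulators and 3 of 13 mitochondrial genes, with 3 assembly factors higher, where 21.1% of all genes were lower and 18.4% higher. In parental OVCAR8 with all controls the lower calls were 6 of 7, 17 of 46, 5 of 13 and 5 of 13. Among all genes, 16.3% were lower there. Without replicate 2, where 24.9% of all genes were lower and 24.3% higher, the lower calls were 6, 20, 7 and 8. In that fit 6 assembly factors, 1 regulator and 1 mitochondrial gene were higher. CYCS fell in parental OVCAR8 by 0.99 with all controls and 0.93 without replicate 2, and TFAM by 0.44 and 0.59. Between untreated NR and parental 5637, 15 assembly factors were higher and 12 lower, and 4 mitochondrial genes were higher and 1 lower, where 28.4% of all genes were higher and 28.0% lower. MT-ND1 was higher by 0.49. PPARGC1A, which encodes the coactivator PGC-1alpha, averaged 1.41 CPM in NR controls and 0.271 CPM in parental controls, higher by 2.37 ± 0.34 (SE, edgeR adjusted p = 2e-05), while NRF1 was lower by 0.41 and ESRRA by 0.29. PPARGC1A was thus low in both groups, and the other regulators of the list are not given for this comparison.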

How the data were processed

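RNA was sequenced as stranded poly(A) libraries on a HiSeq 3000 with paired ends, per the labels' protocols. The authors deposited raw read counts per gene for 24 libraries. STAR 2.5.3a, featureCounts 1.15.2, DESeq2 1.18.1, FastQC and hg19 are named in the submitters' processing notes, and the strand setting of the counting is not given in the sources used here. Members and lists were chosen with earlier results of these data known.

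Counts were tested with edgeR 4.0.16 (R 4.3.3, limma 3.58.1): low genes were removed by filterByExpr, TMM set the scaling, and the quasi-likelihood F-test was used, with Benjamini-Hochberg adjustment over all genes tested and a threshold of 0.05. Each line was fitted alone (12 libraries, 4 group means), and comparisons between lines used all 24. The fit was tested on simulated data. CPM are per library total, and TPM use the gene lengths of the table. The SE is the log2 fold change over the root of F.

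For each comparison and complex, up to 3 members above 5 CPM with the largest rise and up to 3 with the largest fall past the threshold are named, together with core subunits and paralogue pairs whatever their values. Alternatives were DESeq2 1.42.0, scaling by library size, no filter, a replicate block and leaving out each library. The fit of NR OVCAR8 without OVCAR8 parental control replicate 2 was added after seeing the data.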

Additional observations from a re-analysis of the deposited data

Results flagged for a closer look

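In 5637, the effect of neratinib differed between NR and parental cells, by a test of the difference itself in edgeR, for 9 of the named subunits whose fall was smaller or absent in NR cells. The difference, NR minus parental on the log2 scale, was 0.546 for NDUFS5, 0.60 for ATP5G1, 0.335 for ATP5A1, 0.378 for ATP5G3 and 0.354 for COX7A2. It was 0.402 for NDUFB3, 0.291 for NDUFA4, 0.490 for NDUFB6 and 0.324 for UQCRFS1. The calls of NDUFA4, NDUFB6 and UQCRFS1 were lost without NR control replicate 1, parental control replicate 1 or treated parental replicate 2, among others, with edgeR adjusted p up to 0.0716, 0.0739 and 0.089.

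In OVCAR8 the same test singled out NDUFA5 at 0.580, NDUFC2 at 0.606, ATP5G3 at 0.709, ATP5F1 at 0.673 and SDHD at 0.442, with all parental controls in the fit. Without OVCAR8 parental control replicate 2 the differences were 0.53 for NDUFA5, 0.48 for NDUFC2, 0.46 for ATP5G3, 0.43 for ATP5F1 and 0.36 for SDHD, and all of them passed. When any 1 of the 6 NR libraries was left out instead, the calls of NDUFC2, ATP5G3, ATP5F1 and SDHD were lost, and so they were without treated parental replicate 2 or 3, with edgeR adjusted p up to 0.10, 0.107, 0.113 and 0.132.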

How the results depend on the processing

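Each library is 1 dish, and OVCAR8 parental control replicate 2 sets most of the spread in OVCAR8: the biological coefficient of variation was 12.95% with it and 4.37% without it. In parental 5637 under neratinib, leaving out single libraries gave between 43 and 46 lower subunits where 52 were lower with all, and between 37 and 39 for NR over parental, so neither count rested on 1 library. Lower calls among all genes ran between 3713 and 3952 and between 4642 and 4852 in these fits.

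With library size scaling, 7 subunits were lower and 7 higher in NR 5637 under neratinib, and the difference of effects in 5637 was positive in 26. Of all 18307 genes, 2430 were lower and 5015 higher, and the difference was positive in 1474. Without a filter, 14 were lower in NR over parental OVCAR8, 16 were positive in the OVCAR8 difference of effects and 7 lower in the difference between lines. The counts among all genes were 1081 of 35510, 722 of 35510 and 1008 of 39786. DESeq2 gave 13 positive in the OVCAR8 difference of effects, where 1367 of 16233 genes were positive. It gave 2 lower in the difference between lines, where 1212 of 16643 genes were lower. With a replicate block, 1 subunit was lower in NR over parental OVCAR8 and 1 positive in the OVCAR8 difference of effects, while parental 5637 under neratinib had 48 lower. The counts among all genes with the block were 712 of 18072, 572 of 18072 and 4106 of 18307. The labels tie no dishes by number, and same-numbered libraries had correlations of deviations between -0.535 and 0.378 in 5637 (median -0.128) and between -0.283 and 0.246 in OVCAR8 (median 0.0116), against medians of 0.0211 and -0.0032 between different numbers.

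Leaving out 1 library gave 14 to 26 lower in NR 5637 under neratinib and 7 to 22 positive differences in 5637. Among all genes these ranges were 3101 to 4070 and 977 to 1688. In OVCAR8, leaving out 1 library gave 1 to 2 higher and 21 to 57 lower in parental cells (57 without parental control replicate 1, 21 without parental neratinib replicate 2), 0 to 3 higher and 0 to 11 lower in NR cells, 0 to 2 higher and 0 to 17 lower in NR over parental, and 1 to 36 positive and 1 to 3 negative differences. Lower calls among all genes ran from 2038 to 4611 in parental cells, from 22 to 2210 in NR cells and from 490 to 2107 in NR over parental. Positive differences among all genes ran from 409 to 3157. Between lines, leaving out 1 library gave 22 to 38 higher and 6 to 33 lower untreated, and 0 to 11 higher and 1 to 8 lower for the difference of effects. Among all genes, 7052 to 7599 were higher and 6908 to 7561 lower untreated. For the difference of effects, 798 to 2017 of all genes were higher and 602 to 1852 lower.

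Without OVCAR8 parental control replicate 2, 10 of 72 subunits turned sign under neratinib in parental OVCAR8, 3 under neratinib in NR OVCAR8, 24 in NR over parental, 12 in the OVCAR8 difference of effects, 20 in OVCAR8 over 5637 and 49 in the difference between lines, most with no call in either fit. The named ones with a call in either fit were ATP5G2 under neratinib in parental OVCAR8 (range over libraries left out -0.38 to 0.10), SDHB in NR over parental (-0.29 to 0.19) and COX5B in the OVCAR8 difference of effects (-0.34 to 0.42). In OVCAR8 over 5637 they were ATP5G1 (-0.0103 to 0.53), ATP5G3 (-0.21 to 0.16), COX6A1 (-0.24 to 0.48), NDUFS3 (-0.33 to 0.28) and NDUFV1 (-0.23 to 0.26). In the difference between lines they were ATP5B (-0.11 to 0.18), ATP5G1 (-0.26 to 0.27) and COX5A (-0.26 to 0.29). The cause was not tested.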
